A study of Mus musculus with 6 samples.

Results

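The peptidylarginine deiminase genes, Padi1, Padi2, Padi3, Padi4 and Padi6, form a single cluster on mouse chromosome 4, and their RNA was followed in mouse embryonic stem cells (ESC) with normal or reduced Srrm2. All 5 genes of the cluster were taken by name from the 42450 genes listed in the deposited table of total RNA, and all 5 passed the filter on low counts, as 18905 genes did. The genes were picked with their values in this comparison known, so the values of the Padi genes are given as a description, with no p-value. Padi1 passed the filter through the WT libraries, where it was high, so its place among the tested genes is no support for a difference.

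The study asked what the dose of Srrm2, a serine- and arginine-rich protein of the spliceosome and of nuclear speckles, does to pluripotency. It compared 3 libraries of the wild-type male ESC line E14tg2a.4 (WT) with 3 of a derivative that carries a gene-trap cassette in exon 1 of Srrm2 on 1 allele (Srrm2+/-, the line CG0630 of the Sanger Institute Gene Trap Resource). Both lines were kept on gelatin with LIF, the cytokine that holds mouse ESC in self-renewal, and were moved to serum-free medium with LIF before harvest. The mutant is a single trapped clone, WT cells were frozen at higher passage numbers than Srrm2+/- cells, and replicates were thawed from separately frozen batches, so clone, passage and genotype cannot be told apart.

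Peptidylarginine deiminases are calcium-dependent enzymes that convert arginine residues of proteins to citrulline, which removes a positive charge. PADI1 and PADI3 are best known from epidermis and hair follicle, PADI2 from brain, muscle and many other tissues, PADI4 from granulocytes, where it enters the nucleus and citrullinates histones, and PADI6 from the oocyte, where it belongs to cytoplasmic lattices and lacks clear enzyme activity. In ESC, Padi4 has been linked to histone H1 citrullination and to the expression of pluripotency genes.

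The libraries held 54151532 to 69933465 estimated counts. Levels are given as CPM, the estimated count relative to a library size scaled by TMM. Srrm2 itself stood at 91.2, 98.3 and 97.7 CPM in the WT libraries and at 62.3, 56.2 and 59.6 CPM in the mutant libraries, a fall of 0.69 on the log2 scale (SE 0.05, adjusted p = 2.38e-05 by edgeR's quasi-likelihood test). The summed level of 6 pluripotency markers was 3882 to 4090 CPM in WT and 3282 to 3406 CPM in Srrm2+/-, with 5 of the 6 lower and Pou5f1 not past the threshold. Markers of the cell types in which Padi genes are best known were low: epidermal markers summed to 1.85 to 2.73 CPM over all libraries, mostly from Krt10, granulocyte markers to 1.89 to 2.34 CPM with S100a8 at 0, and oocyte markers to 2.14 to 3.32 CPM with Zp2 at 0. Of these lists 1 epidermal, 4 granulocyte and 2 oocyte genes had enough counts to be tested, and 0 passed the threshold by edgeR. The summed level of 6 fibroblast markers was 3.36 to 3.63 CPM in WT and 6.53 to 9.88 CPM in Srrm2+/-, a difference carried by collagen genes. Of 5 tested, Col1a1, Col1a2 and Col3a1 were called higher, though Col1a2, with 6, 15 and 12 counts in WT, passed the count filter only through Srrm2+/-. Thy1 (1.93 CPM in WT, 1.19 CPM in Srrm2+/-) and Pdgfrb (0.335 and 0.392 CPM) did not pass the threshold, and Dcn had 0 counts in WT and 2 to 4 in Srrm2+/-. The part of these markers in the Padi values was not tested, and in bulk RNA fewer cells of a type and less RNA per cell cannot be told apart.

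The cluster spans 225232 bases of the GRCm38 build, and its order along the chromosome is Padi6, Padi4, Padi3 and Padi1 on the minus strand, followed by Padi2 on the plus strand. Each gene is protein coding with 16 exons, and the coding sequences run from 1986 bases (Padi1) to 2046 bases (Padi6). Coding identity between pairs ranged from 57.2% (Padi2 and Padi6) to 66.1% (Padi3 and Padi4, and likewise Padi1 and Padi4). Despite this common descent few exact words were shared within the family: of the 31-base words of their transcripts, 38 of 3724 in Padi1, 36 of 3381 in Padi3, 11 of 4856 in Padi4, 3 of 4981 in Padi2 and 0 of 2501 in Padi6 also lay in another Padi gene. Padi1 differed from the others in another way, since 31.8% of its words were found in other genes, 1146 of them in Gm13032, a non-coding gene that overlaps it on the opposite strand.

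The regions before the start sites of the 3 most abundant members are shown because Padi2 and Padi4 were lower in Srrm2+/- and Padi3, which lies between them, was not separated. The 240 bases shown end 10 bases before the start given by RefSeq (GRCm38.p6), read 5′ to 3′ on the gene's strand. In the GENCODE annotation used here for gene positions, Padi2 and Padi4 start farther upstream, within the bases shown. Capitals mark matches on either strand to the TATA box (TATAAA), the CCAAT box (CCAAT), the GC box (GGGCGG) and the octamer (ATGCAAAT).
Padi2, chr4:140906110-140906349, plus strand: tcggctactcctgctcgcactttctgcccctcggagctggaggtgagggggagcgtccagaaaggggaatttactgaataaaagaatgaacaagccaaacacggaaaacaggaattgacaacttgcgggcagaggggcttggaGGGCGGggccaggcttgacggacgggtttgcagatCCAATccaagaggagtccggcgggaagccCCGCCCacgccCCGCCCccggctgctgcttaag
Padi4, chr4:140774214-140774453, minus strand: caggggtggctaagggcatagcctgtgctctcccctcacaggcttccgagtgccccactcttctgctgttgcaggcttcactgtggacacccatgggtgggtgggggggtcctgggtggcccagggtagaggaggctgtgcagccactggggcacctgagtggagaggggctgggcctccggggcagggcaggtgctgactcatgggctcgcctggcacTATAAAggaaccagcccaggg
Padi3, chr4:140810659-140810898, minus strand: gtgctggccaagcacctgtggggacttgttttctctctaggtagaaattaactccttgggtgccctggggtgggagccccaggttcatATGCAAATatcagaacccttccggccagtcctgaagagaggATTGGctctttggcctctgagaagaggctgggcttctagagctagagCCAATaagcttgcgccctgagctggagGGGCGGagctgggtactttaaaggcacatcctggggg

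These upstream regions differed in make-up. The window of 300 bases around the start held 22 CpG in Padi2, 8 in Padi4, 4 in Padi3, 3 in Padi1 and 2 in Padi6, against a median of 7 over 32851 promoters. Padi2 held a CCAAT box and 3 GC boxes, Padi3 held 2 CCAAT boxes, a GC box and the octamer, Padi6 held a CCAAT box and a GC box, and Padi1 held none of the motifs. Padi4 held a TATA box at -31 to -26 of the RefSeq start and no CCAAT or GC box. By the GENCODE annotation, in which Padi4 starts at chr4:140774236, these TATA letters lie inside the gene and not before it. Over all promoters, 13.6% held the TATA letters, 37.4% CCAAT, 35.7% GGGCGG and 1.74% the octamer. Letters for STAT factors (TTCNNNGAA, 8.30% of all promoters), orphan nuclear receptors (TCAAGGTCA, 0.423%) and the full estrogen response element (0.0700%) were in none of the 5 windows. A match describes the letters and not a bound site.

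Padi2 and Padi4 were lower in Srrm2+/- cells and Padi1 was lower at a level near the detection limit, whereas the libraries of the 2 genotypes overlapped for Padi3 and Padi6. With edgeR at an adjusted p under 0.05, 3 of the 5 genes were called lower and 0 higher, where 11.7% of all 18905 genes tested were called lower. The same 3 genes had groups that did not overlap, as did 20.0% of all genes in that direction. Since the members were chosen on this contrast, nothing is read from these counts.

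Padi2, the broadly expressed member (ENSMUSG00000028927, chr4:140906344-140952586), was the most abundant. WT libraries held 5.73, 8.10 and 7.75 CPM of it and Srrm2+/- libraries 4.21, 4.09 and 4.49 CPM. The WT libraries were spread and the Srrm2+/- libraries close together, and the lowest WT library lay above the highest Srrm2+/- library. The means were 7.19 ± 1.28 and 4.26 ± 0.21 CPM (SD, n = 3 each), so that Srrm2+/- cells held 59.3% of the WT level, a log2 fold change of -0.76 (SE 0.14).

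Padi4, the member with a nuclear localization signal (ENSMUSG00000025330, chr4:140745865-140774236), had the clearest separation. Its level was 2.38, 2.68 and 2.28 CPM in the WT libraries and 0.636, 0.827 and 1.14 CPM in Srrm2+/-, from 122 to 155 estimated counts per WT library and 44 to 70 per Srrm2+/- library. Even the highest Srrm2+/- library lay well under the lowest WT library. The means of 2.45 ± 0.21 and 0.866 ± 0.252 CPM (SD, n = 3 each) differed 2.83-fold, a log2 fold change of -1.50 (SE 0.22).

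Padi1 (ENSMUSG00000025329, chr4:140812983-140845778), a deiminase of the epidermis, was close to absent. It received 10, 20 and 13 estimated counts in WT and 5, 7 and 2 in Srrm2+/-, or 0.180, 0.346 and 0.243 CPM against 0.0723, 0.102 and 0.0324 CPM. The groups did not overlap, and the Srrm2+/- mean was 26.8% of WT, a log2 fold change of -1.85 (SE 0.51). The overlapping Gm13032 received 4, 0 and 0 counts in WT and 3, 6 and 2 in Srrm2+/-. When the counts of the pair were summed, an alternative added after seeing the data, the difference shrank from 3.73-fold to 2.28-fold (log2 fold change -1.16, SE 0.45) and was no longer called. The call was also lost with DESeq2 and without WT replicate 2 or 3 or Srrm2+/- replicate 1 or 3.

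Padi3 (ENSMUSG00000025328, chr4:140785365-140810648), the hair follicle member that acts on trichohyalin, lies between Padi4 and Padi1 on the chromosome. Its level was 1.23, 1.76 and 1.33 CPM in the WT libraries and 1.26, 0.957 and 1.41 CPM in Srrm2+/-. The groups overlapped, with 2 of the 3 Srrm2+/- libraries above the lowest WT library. The means were 1.44 ± 0.29 and 1.21 ± 0.23 CPM (SD, n = 3 each) and the log2 fold change was -0.25 (SE 0.22).

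Padi6 (ENSMUSG00000040935, chr4:140727355-140742643), the oocyte member, was also close to absent. It received 22, 5 and 17 counts in WT and 17, 25 and 10 in Srrm2+/-, or 0.396, 0.0865 and 0.317 CPM against 0.246, 0.363 and 0.162 CPM. WT replicate 2 was the lowest of the 6 libraries. The log2 fold change of -0.04 (SE 0.54) leaves a difference in either direction possible at this depth, and its sign depended on the library left out.

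**Figure D1:**
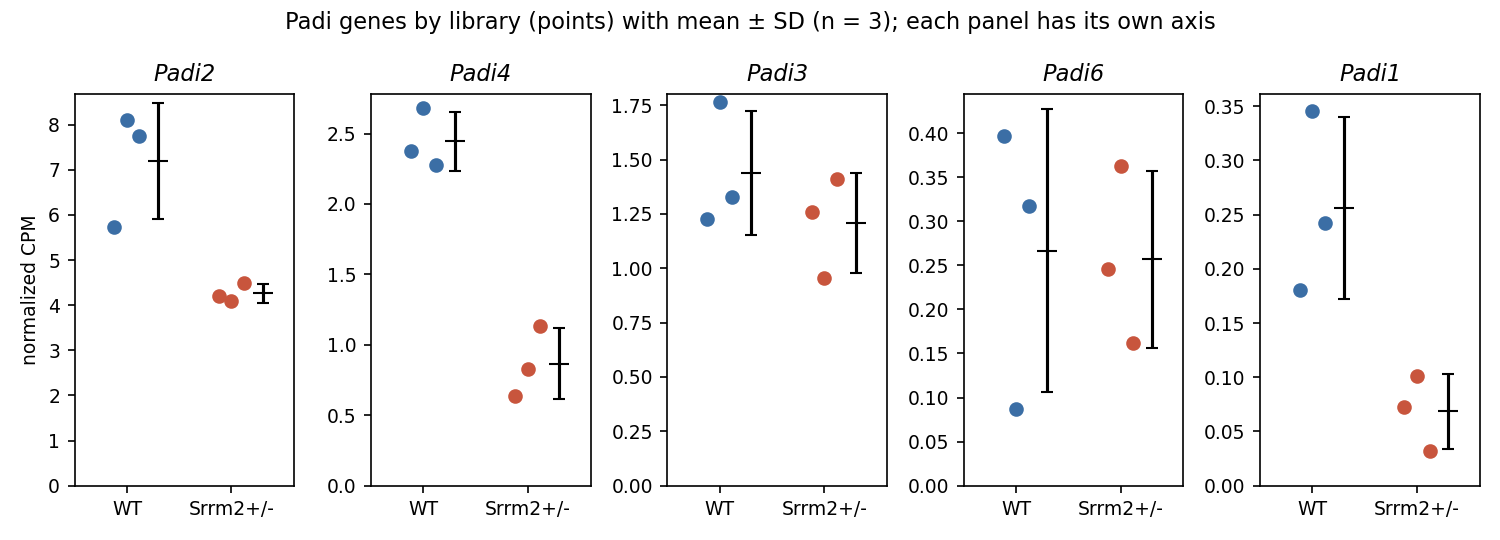
Normalized CPM of the 5 Padi genes, with a panel per gene, a point per library and the mean ± SD (n = 3) beside the points (WT blue, Srrm2+/- red; axes start at 0 and differ between panels). The Srrm2+/- points lie below all WT points for Padi2, Padi4 and Padi1, and are mixed with them for Padi3 and Padi6.

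The sum over the cluster was 9.91, 13.0 and 11.9 CPM in WT and 6.42, 6.34 and 7.23 CPM in Srrm2+/-. The groups were apart, and the Srrm2+/- mean was 57.4% of the WT mean. Padi2 made up a similar part of this sum in both, 61.8% ± 3.7 of the WT sum and 64.1% ± 1.8 of the mutant sum (SD over 3 libraries). The part of Padi4 was 21.3% ± 2.5 in WT and 12.9% ± 2.9 in Srrm2+/-, and that of Padi3 12.4% ± 1.2 and 18.1% ± 2.6. CPM are not scaled by length, so these parts compare the genotypes and not the levels of different genes.

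Levels of different genes were compared per kilobase of annotated exon. In WT the order of mean levels was Padi2 (1.44 ± 0.25 CPM per kilobase), Padi4 (0.506 ± 0.043), Padi3 (0.417 ± 0.083), Padi6 (0.105 ± 0.064) and Padi1 (0.0683 ± 0.0223; SD, n = 3 throughout). Padi4 and Padi3 overlapped between libraries, as did Padi6 and Padi1, while the other neighbours in the order did not. In Srrm2+/- the order was Padi2 (0.850 ± 0.041), Padi3 (0.351 ± 0.067), Padi4 (0.179 ± 0.052), Padi6 (0.101 ± 0.040) and Padi1 (0.0183 ± 0.0092). Here Padi4 overlapped with Padi6 and not with Padi3.

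Padi4 and Padi3 thus changed places in the order of means. The ratio of their estimated counts was 1.94, 1.52 and 1.72 in the WT libraries and 0.506, 0.864 and 0.805 in the Srrm2+/- libraries. Counts are not scaled by length, so a ratio of 1 does not mean equal levels. Per kilobase of exon, Padi4 lay above Padi3 within each WT library, though narrowly in WT replicate 2 (0.555 against 0.512). It lay below Padi3 within each Srrm2+/- library. The choice of length bears on the level of Padi4, whose exons together are 4835 bases but whose longest transcript is 3021 bases. With the longest transcript, Padi4 stood at 0.810 CPM per kilobase in WT and 0.287 in Srrm2+/-, beside 0.435 and 0.365 for Padi3, which keeps the exchange of the means. The overlaps between libraries did depend on the length. With the longest transcript, the lowest Padi4 library in WT (0.754) lay above the highest Padi3 library (0.533). In Srrm2+/- Padi4 (0.211 to 0.376) then overlapped with Padi3 (0.289 to 0.426) and not with Padi6 (at most 0.155).

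**Figure D2:**
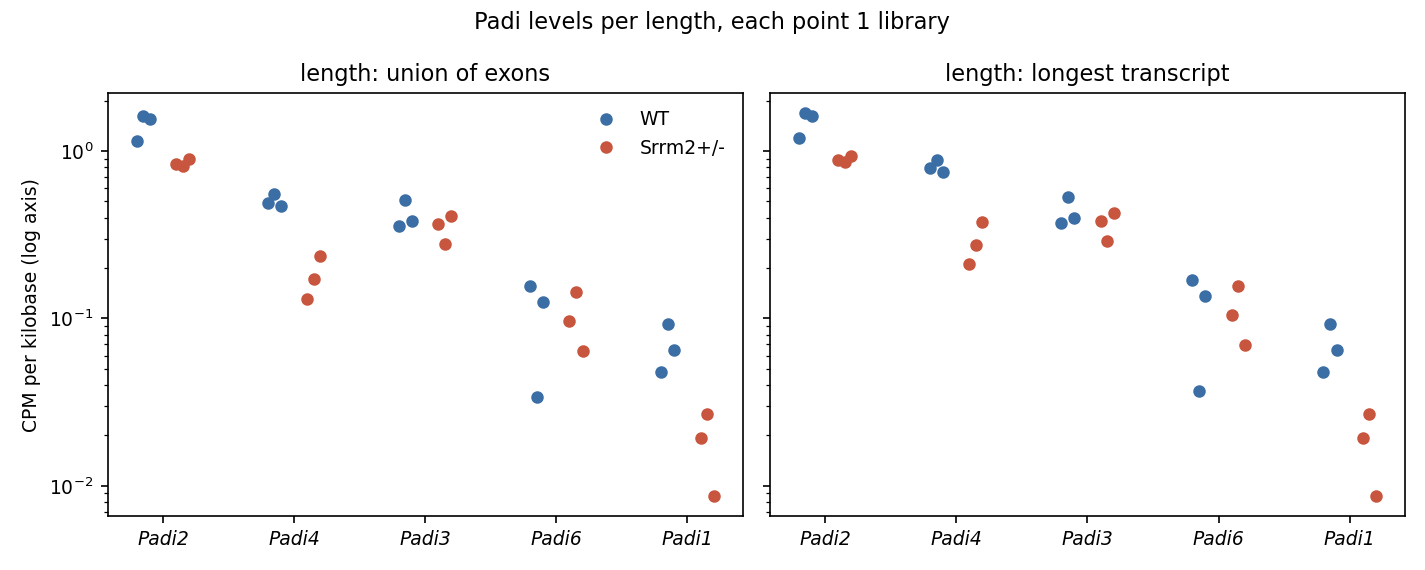
CPM per kilobase (log axis) of the 5 Padi genes in each library (WT blue, Srrm2+/- red), with the union of exons as length on the left and the longest transcript on the right. Padi2 is at the top in both genotypes; Padi4 lies above Padi3 on average in WT and below it in Srrm2+/-.

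The genes around the cluster were not used to choose it. Within 500 kb on either side 41 other genes were listed, of which 25 were tested, and 2 rose and 9 fell by edgeR. That is 44.0% of the neighbours called, against 25.3% of all genes, and 36.0% called lower, with a median log2 fold change of -0.19 against a median near 0 (-0.0025) over all genes. Without Srrm2+/- replicate 2, 7 of 27 neighbours tested were called, beside 3851 of 19407 genes in the same fit, and leaving out each other library gave 8 to 11. Within 200 kb 4 of 11 were called, 1 higher and 3 lower. Within 1 Mb the share was smaller than within 500 kb: 13 of 40 were called (32.5%), 2 higher and 11 lower (27.5%).

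Of the genes next to the cluster, Rcc2 did not pass the threshold and Sdhb fell. Rcc2, a chromosomal passenger protein of mitosis that lies 4135 bases before Padi6, had 536 ± 6.1 CPM in WT cells against 512 ± 7.1 CPM in mutant cells (log2 fold change -0.07, SE 0.04, edgeR adjusted p = 0.214). Sdhb, a subunit of succinate dehydrogenase that lies 8617 bases beyond Padi2, fell from 164 ± 9.6 to 133 ± 2.4 CPM (log2 fold change -0.30, SE 0.05, edgeR adjusted p = 0.00189). Necap2, an endocytosis gene, also fell by 0.20 on the log2 scale, and Szrd1 rose by 0.25.

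Arhgef10l, a guanine nucleotide exchange factor that lies 61343 bases before Padi6, had the largest fall among the 15 tested genes nearest to the cluster. WT libraries held 17.4, 17.8 and 16.5 CPM and Srrm2+/- libraries 8.93, 8.74 and 8.48 CPM, a difference of -0.98 on the log2 scale (SE 0.06, adjusted p = 1.03e-05 by edgeR). Arhgef19, another exchange factor, fell by 0.62. The others of the 15 (Atp13a2, Gm13025, Crocc, Spata21, 4921514A10Rik, Fbxo42, Rsg1, Gm13055 and Gm13056) did not pass the threshold, with log2 fold changes from -0.34 for Rsg1 to 0.84 for Gm13025. Farther out, and named after its values were seen, Igsf21 fell from 1.92 ± 0.31 to 0.581 ± 0.150 CPM (log2 fold change -1.72, SE 0.23).

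The non-coding genes Gm13032, 4930515B02Rik and Gm26226, inside the cluster, and Gm13031, which overlaps its end and extends beyond it, held 0 to 6 counts per library and were not tested.

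**Figure D3:**
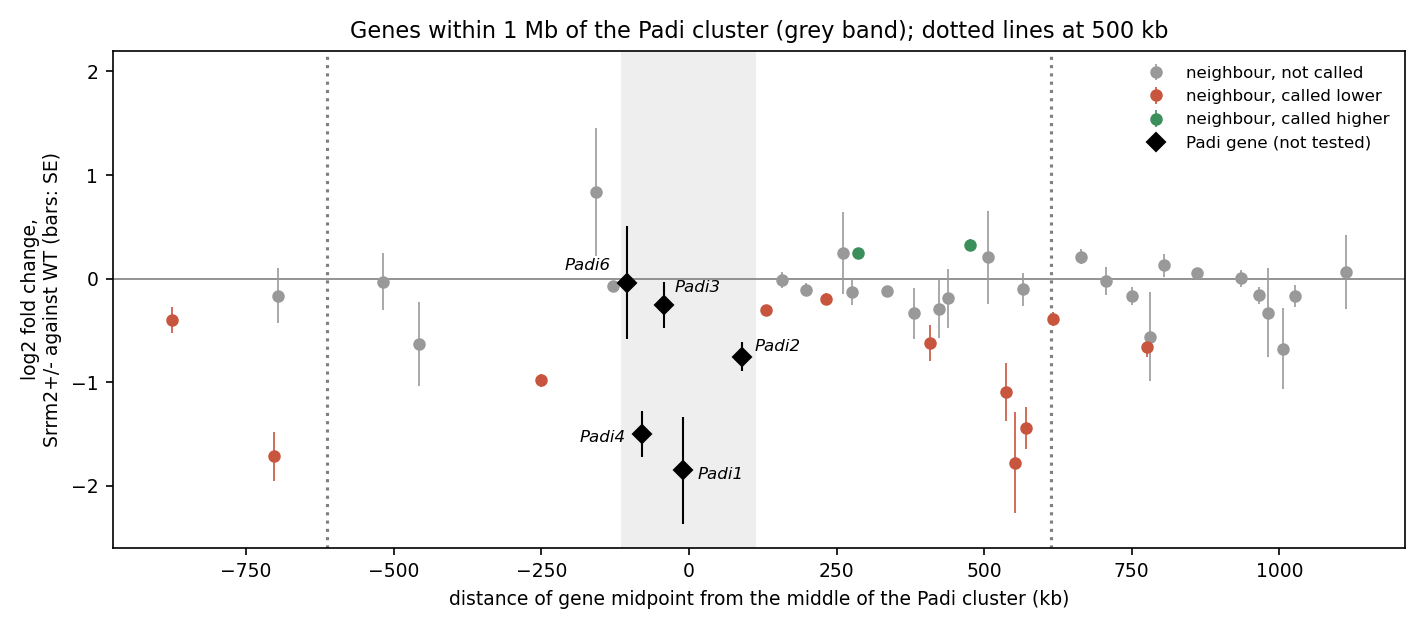
Log2 fold change (Srrm2+/- against WT, bars SE) of tested genes within 1 Mb of the Padi cluster against the distance of the gene's midpoint from the middle of the cluster in kb. Padi genes are black diamonds, neighbours called lower are red, called higher green and not called grey; the text counts a gene by its nearest end, so Igsf21 and Zbtb17, whose midpoints lie beyond the dotted lines, are within 500 kb. Padi4 (-1.50) and Padi1 (-1.85) lie far below Rcc2 (-0.07) and Sdhb (-0.30), the tested genes on either side.

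Of 26 known substrates of deiminases, 21 were tested, and 5 were called higher and 2 lower, with a median log2 fold change of 0.09. That is 23.8% higher and 9.52% lower, beside 13.6% and 11.7% of all genes tested. The 5 include Tchh, the gene of trichohyalin, the hair follicle substrate of PADI3, which had 2, 6 and 4 counts in WT and 32, 26 and 22 in Srrm2+/-. It passed the count filter only through Srrm2+/-, where it was high, so it had to differ and its call is no support for a rise. Hist1h1e, an H1 linker histone, rose by 0.42 and Eno1, a glycolytic enzyme with a near-identical retrogene and so an uncertain count, by 0.40. Fn1, the gene of fibronectin, fell by 0.42 and Ing4, a reader of methylated histone H3, by 0.27. Npm1, the nucleolar protein nucleophosmin, had a log2 fold change of -0.07 and Hist1h1a, another linker histone, one of -0.24, and neither passed the threshold. Flg was not analysed here.

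Of 22 genes that make, move or use arginine and citrulline 19 were tested, and 3 rose and 6 fell, with a median log2 fold change of -0.01. The share that rose, 15.8%, was near the 13.6% of all genes, and the share that fell was 31.6% beside 11.7%. Gatm, the first enzyme of creatine synthesis, rose from 0.604 ± 0.211 to 1.93 ± 0.004 CPM, a log2 fold change of 1.67. Ddah1, which frees citrulline from methylated arginine, rose by 0.99, and Odc1, the first enzyme of polyamine synthesis, by 0.86. The falls were led by Cps1 (-0.95), which feeds the urea cycle, by Nos3 (-0.70), a nitric oxide synthase that releases citrulline, and by Slc7a1 (-0.48), the arginine carrier of the plasma membrane. Ddah2 (0.01) and Slc25a15 (-0.01), the mitochondrial ornithine carrier, did not pass the threshold.

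Methyltransferases that modify the same residue, arginine, showed 3 rises and 0 falls among the 8 tested of 9, with a median log2 fold change of 0.04. The share called higher was 37.5%, beside 13.6% of all genes. Prmt2 rose by 0.88, Carm1 by 0.34 and Prmt6 by 0.22. Prmt5 (0.03) and Prmt7 (-0.11), the most abundant of those not called, did not pass the threshold. Prmt1 was not analysed here.

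The subcortical maternal complex, the oocyte assembly with which PADI6 is found, had 6 of 7 genes tested, of which 1 fell and 0 rose, a share of 16.7% near the 11.7% of all genes called lower. That gene was Ooep, which is also expressed in ESC, at 60.6 ± 2.6 CPM in WT cells against 44.6 ± 1.7 CPM in the mutant cells (log2 fold change -0.44, SE 0.05, edgeR adjusted p = 0.000246). Khdc3 (0.09) and Zbed3 (0.38) did not pass the threshold.

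The stem cell genes that have been linked to Padi4 in ESC had 5 of 6 lower and 0 higher (83.3% called lower, beside 11.7% of all genes), with a median log2 fold change of -0.72. Tcl1, a coactivator of AKT kinase, had 93.8, 96.1 and 95.9 CPM in the WT libraries and 54.2, 55.4 and 54.1 CPM in the mutant libraries, a difference of -0.80 on the log2 scale (SE 0.04, adjusted p = 1.63e-06 by edgeR). Kit, the receptor for stem cell factor, fell by 0.79 and Nanog, a core pluripotency factor, by 0.72. Klf5 had a log2 fold change of -0.15 and did not pass the threshold. The list was written with results of these data known, and Nanog is also among the pluripotency markers above, of which 5 of 6 fell, so the count is no independent sign of a link with Padi4.

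**Figure D4:**
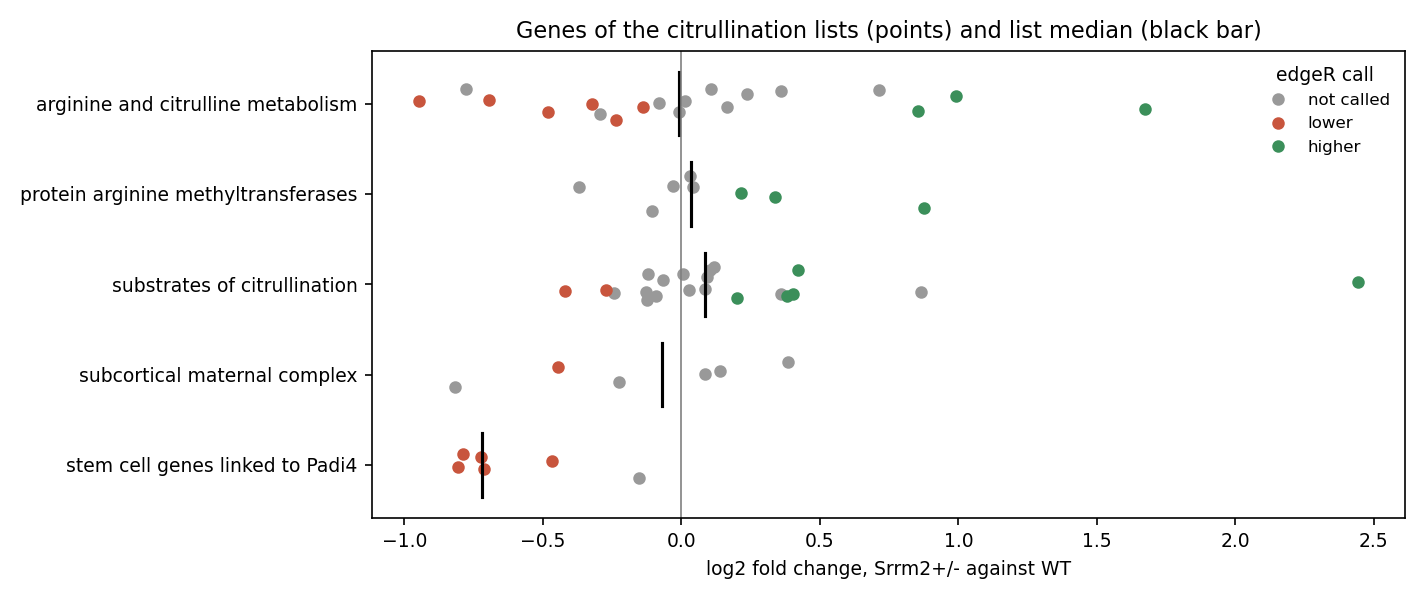
Log2 fold change (Srrm2+/- against WT) of the tested genes of 5 lists related to citrullination, with a point per gene (green called higher, red lower, grey not called by edgeR; vertical position within a list is arbitrary) and a black bar at the list's median. The medians lie between -0.07 and 0.09 in 4 lists and at -0.72 for the stem cell genes linked to Padi4.

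The genes whose log2 CPM followed each Padi gene most closely over the 6 libraries were sought among 10908 genes of sufficient level. They were Slc7a1 (Pearson's r = 0.999), Stat5a (0.996) and Akap1 (0.996) for Padi2, and Phf20 (r = 1.000), Spn (0.997) and Msh6 (0.996) for Padi4. For Padi1 they were Fgf1, Atg4a and Scp2 (r = 0.998 to 0.996), for Padi3 Rsrc1, D10Jhu81e and Sema4b (r = 0.988 to 0.981) and for Padi6 Cramp1l, Tmx3 and Paip2 (r = 0.974 to 0.954). The 6 points share the genotype split and their library totals, and the highest of so many correlations over 6 points is high by choice, so these values are a description only.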

How the data were processed

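Total RNA of 3 WT and 3 Srrm2+/- libraries was sequenced in pairs with a stranded kit. Reads were assigned by the authors to GENCODE transcripts of GRCm38 with kallisto 0.46.1, and the deposited table holds raw estimated counts summed by gene. Whether kallisto was told the strand is not given in the sources used here. The counts were rounded, filtered (edgeR 4.0.16 filterByExpr, at least 10 counts, total 15) and tested with edgeR's two-sided quasi-likelihood test in R 4.3.3 with TMM scaling, genotype as the only term and Benjamini-Hochberg adjustment over all genes tested, at 0.05, the design of the study. The fit was tested on simulated data, where not every gene given a change was called. No change was simulated at levels as low as those of Padi1 and Padi6, so that test does not bear on them. Symbols and positions came from a GENCODE annotation of GRCm38, which matched 42156 of 42450 identifiers and is older than the authors' release. Per-length levels used annotated exons. Alternatives were DESeq2 1.42.0, limma 3.58.1 voom, RLE scaling, other filters, a replicate block and leaving out each library. Same-numbered libraries did not deviate together (correlations -0.034 to -0.028).

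The Padi genes, the gene lists and the rules for naming genes were chosen with earlier results of these data known. Named were the Padi genes, the 15 tested genes nearest to the cluster, from each list the called genes with the 3 largest rises and falls and up to 2 abundant genes not called, and the 3 genes most correlated with each Padi gene. Replicates were separately thawed batches of a line, so p-values measure the spread between these batches. Protein sequences were not used here.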

Additional observations from a re-analysis of the deposited data

How the results depend on the processing

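Padi2 and Padi4 kept a negative log2 fold change and their call in 12 of 12 alternatives (-0.89 to -0.66 and -1.74 to -1.32). Padi3 stayed uncalled (-0.38 to -0.08). All alternatives reuse the libraries on which the Padi genes were picked, so the calls describe the processing and are no support for a difference. Padi1 stayed negative (-2.23 to -1.16) but was called in 6 of 12, and it could not be fitted with at least 1 CPM required. Its smallest change, -1.1646, came from summing its counts with those of Gm13032. Padi6 changed sign, and the cause was not tested: 0.1459 with limma voom, 0.0183 with the replicate block and -0.46 to 0.36 when a library was left out (0.3644 without WT replicate 1, 0.1039 without WT replicate 3, 0.1946 without Srrm2+/- replicate 3). Counts of 2 to 25 per library limit Padi1 and Padi6.

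Over all genes the alternatives called 3515 to 4796 genes (3515 to 4122 with fewer samples). The replicate block, for libraries that share only a number, called 4166 genes and gave -0.74 for Padi2 and -1.53 for Padi4; it changed no call of the Padi genes. Neighbour calls were 4 within 200 kb, where fewer genes are tested, and 13 within 1 Mb, where more are. They were 7 to 11 when a library was left out, the 7 without Srrm2+/- replicate 2. Called genes of the subcortical maternal complex were 1 to 2, the 2 without Srrm2+/- replicate 2. With the longest transcript as length, levels in CPM per kilobase moved to 0.8926 for Padi2 in Srrm2+/-, and to 0.8096 in WT and 0.2865 in Srrm2+/- for Padi4. All other list counts stayed within 1.5 times their value.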
